A study of Mus musculus with 19 samples.

Results

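The genes described here are Macroh2a2, Olfml3, Gas7, Tuba4a, Haghl, Rrad and Ptprc, 7 of the 25239 gene symbols counted by RNA sequencing of mouse heart. They were chosen by their measured values, for a strong difference between Mcm8 knockout hearts after LCWE and Mcm8 knockout hearts after PBS, with LCWE higher. LCWE is an extract of Lactobacillus casei cell walls, used to bring on coronary vasculitis in a mouse model of Kawasaki disease. PBS is the saline control, and Mcm8 encodes a helicase of DNA replication and repair. The 19 libraries are 5 of wild-type hearts with PBS, 6 of wild-type hearts with LCWE, 3 of Mcm8 knockout hearts (Mcm8-/-) with PBS and 5 of Mcm8 knockout hearts with LCWE. The sources used here do not give the strain, age or sex of the mice, how the knockout was made, the dose of LCWE or the time of sampling. Fitted levels of Y-linked genes differed between groups, as given below, so the groups may differ in sex. Nothing in the labels says that the libraries of a group came from separate animals, so p-values measure the spread between these libraries, which may be technical.

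The study asked how Mcm8 bears on vascular health in this model. The choice of the 7 genes used the comparison of knockout LCWE with knockout PBS, so the differences in that comparison, and in the comparisons of either knockout group with wild type, are given as descriptions without a test. The comparison of the choice sets no wild-type library against another, so the genes were tested for LCWE against PBS in wild type. In the fit of all 4 groups, wild-type libraries do share in the estimate of the spread. Total counts per library ranged from 11853233 to 16145911. Levels are CPM, counts scaled to a common library size, with TMM factors that correct the totals for composition. The TMM factor was lowest, 0.909, in knockout PBS replicate 1, and was between 0.958 and 1.05 in the other 18 libraries. The targeted gene Mcm8 was at 3.66 ± 0.66 CPM (SD, n = 5) in wild-type PBS and 4.09 ± 0.996 (n = 6) in wild-type LCWE. In the knockout it was at 0.760 ± 0.147 CPM (n = 3) after PBS and 0.391 ± 0.271 (n = 5) after LCWE, so each library matched its labelled genotype. The heart label matched the markers: 6 cardiomyocyte genes summed to 68030 CPM or more in every library.

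The 7 genes belong to no common pathway. MacroH2A2 is a histone H2A variant with a large macro domain that takes the place of H2A in nucleosomes and is associated with repressed chromatin. Olfml3 is a secreted glycoprotein with an olfactomedin domain. Tuba4a is an alpha-tubulin, a subunit of microtubules, and Gas7 is an F-BAR protein that binds membranes and actin. Haghl resembles hydroxyacylglutathione hydrolase, an enzyme of the glyoxalase system that clears methylglyoxal. Rrad (Rad) is a small GTPase of the RGK family, abundant in heart muscle, that restrains the L-type calcium channel of cardiomyocytes. Ptprc encodes CD45, the receptor tyrosine phosphatase on the surface of all nucleated blood cells, which removes the inhibitory phosphate of Src family kinases. In whole-tissue RNA, fewer cells of a type and less RNA per cell cannot be told apart.

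Promoters are shown for Olfml3 and Ptprc, from the only 2 of 8 upstream windows that met annotated exons by at most 2 bases. As printed the windows hold no annotated exon, and they differ in composition. Over the wild-type libraries, treatments pooled, levels of these genes were correlated, as given below. The sequences are from RefSeq on GRCm38.p6, which held promoters for 5 of the 7 genes, and they are written 5′ to 3′ on the minus strand, the strand of both genes, ending at or just before the annotated start. Capitals mark motif matches on either strand: the GC box GGGCGG, bound by Sp1-type factors, in Olfml3 and the TATA box letters TATAAA in Ptprc.
Olfml3, chr3:103738002-103738251: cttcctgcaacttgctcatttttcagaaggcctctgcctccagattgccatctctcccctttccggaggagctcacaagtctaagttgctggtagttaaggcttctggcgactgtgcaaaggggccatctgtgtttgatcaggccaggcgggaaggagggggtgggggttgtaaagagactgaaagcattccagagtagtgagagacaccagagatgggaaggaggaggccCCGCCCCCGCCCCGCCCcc
Ptprc, chr1:138175307-138175555: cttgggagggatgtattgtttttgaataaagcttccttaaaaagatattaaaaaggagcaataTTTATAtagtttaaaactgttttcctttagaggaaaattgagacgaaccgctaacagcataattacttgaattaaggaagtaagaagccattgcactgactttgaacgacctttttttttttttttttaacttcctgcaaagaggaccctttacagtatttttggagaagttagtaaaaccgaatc
The Olfml3 window of 250 bases was 57.6% G or C, with 6 CpG dinucleotides. It held 3 GC boxes, starting 19, 13 and 8 bases before the start, of which the last pair overlap. The Ptprc window was 31.6% G or C with 4 CpG. It held no GC box and 1 match to TATAAA, on the opposite strand, starting 187 bases before the start. Over 32851 windows of 250 bases before annotated starts, 32.7% held the GC box and 12.4% held TATAAA on either strand. Neither window held the CCAAT box (CCAAT, in 33.8% of windows on either strand), the cAMP response element (TGACGTCA, 1.55%), the myeloid PU.1 site (GAGGAAGT, 2.44%), the E-box (CACGTG, 6.02%) or the AP-1 site (TGANTCA, 6.75%). Such matches are exact letters in these windows only, and letters that differ by 1 base were not counted. The Ptprc window held aaggaagt, 1 base from the PU.1 letters searched. Among the windows that overlap annotated exons and are not shown, that of Tuba4a held 2 GC boxes, and a window of Haghl held 1 CCAAT.

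Levels differed widely between the genes. Per kilobase of exon in the GENCODE M21 annotation, the mean level over all 19 libraries was 377 CPM per kb for Tuba4a and 208 for Rrad. It was 5.69 for Haghl, 3.93 for Macroh2a2, 3.17 for Olfml3, 1.57 for Gas7 and 0.524 for Ptprc. Counts per library ranged from 57 for Macroh2a2 to 31973 for Tuba4a, so counting error is largest for Macroh2a2 and Ptprc. All 7 genes passed the filter on low counts, as did 14301 of the 25239 symbols. Whether knockout PBS stood apart from the other groups is described gene by gene.

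Macroh2a2 lies on chromosome 10 (61738665 to 61784147, minus strand, GRCm38, as H2afy2 in that annotation). It was at 11.01, 9.03, 10.3, 9.20 and 7.35 CPM in wild-type PBS replicates 1 to 5. In knockout PBS replicates 1 to 3 it was at 4.76, 6.44 and 4.29 CPM. Every knockout PBS library lay below all 16 others. In knockout LCWE it was at 9.81, 11.2, 8.76, 9.01 and 12.2 CPM, and in the 6 wild-type LCWE libraries the lowest, median and highest were 7.07, 7.58 and 11.05 CPM. Knockout LCWE thus lay in the range of wild-type PBS or just above it, and 5 of the 6 wild-type LCWE libraries lay in the lower part of that range or below. Knockout LCWE was higher than knockout PBS by 0.98 ± 0.19 on the log2 scale (edgeR, ± SE), and knockout PBS stood at -0.86 ± 0.19 against wild-type PBS. Knockout LCWE stood at 0.32 ± 0.15 against wild-type LCWE. In wild-type hearts LCWE stood at -0.20 ± 0.15 against PBS (adjusted p = 0.87, edgeR quasi-likelihood test with Benjamini-Hochberg adjustment), the sign opposite to that of the other 6 genes. Its paralogue Macroh2a1, the other macroH2A gene, was at 49.6 ± 2.2 CPM (SD, n = 5) in wild-type PBS and 51.5 ± 3.8 (n = 3) in knockout PBS.

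**Figure D1:**
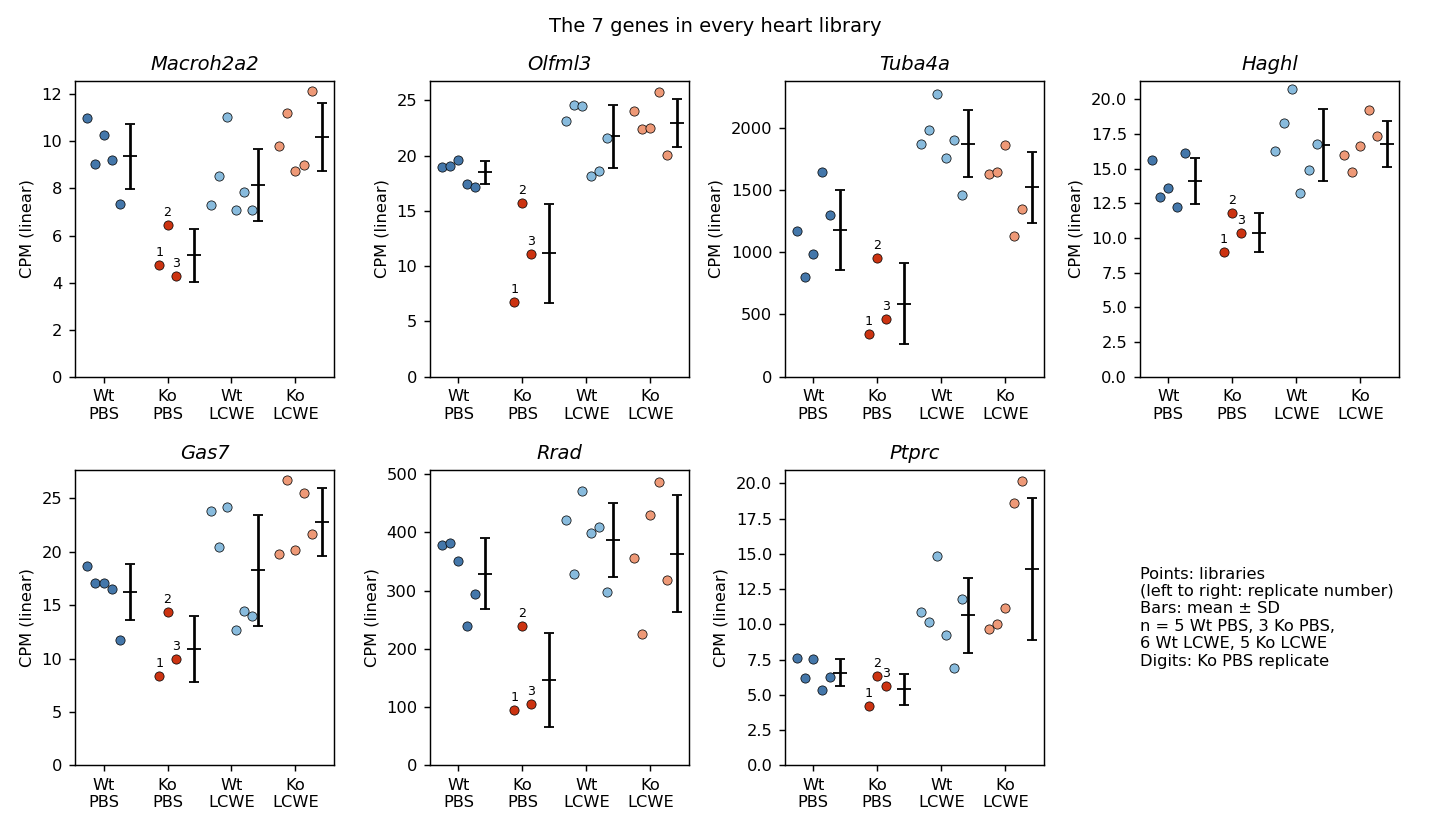
CPM on a linear axis from 0 of the 7 genes in each of the 19 libraries, by group, with bars for the mean ± SD and digits for the knockout PBS replicates. Knockout PBS replicates 1 and 3 sit lowest or near lowest in each panel, while replicate 2 sits close to wild-type PBS, within it for Gas7, Tuba4a and Ptprc.

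Olfml3 (chromosome 3, 103722222 to 103738001, minus strand) was at 19.02, 19.1, 19.6, 17.5 and 17.2 CPM in wild-type PBS. Knockout PBS gave 6.72, 15.7 and 11.1 CPM in replicates 1 to 3. All 3 lay below the other 16 libraries, but replicate 2 lay just under the lowest wild-type PBS library and replicate 1 at 36.3% of the wild-type PBS mean. Knockout LCWE gave 24.03, 22.4, 22.5, 25.8 and 20.03 CPM, and wild-type LCWE ranged from 18.15 to 24.6 with a median of 22.4. Both LCWE groups overlapped each other, and every knockout LCWE library lay above every PBS library of either genotype. The log2 difference was 1.04 ± 0.19 (SE) for knockout LCWE against knockout PBS. It was -0.73 ± 0.19 for knockout against wild-type PBS and 0.08 ± 0.15 between genotypes after LCWE.

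Tuba4a (chromosome 1, 75214228 to 75219865, minus strand) was the most abundant of the 7. Wild-type PBS gave 1172, 797, 987.5, 1641 and 1300 CPM. Knockout PBS gave 341, 954 and 464 CPM, so replicates 1 and 3 lay below every other library and replicate 2 lay inside the range of wild-type PBS. Knockout LCWE gave 1626, 1645, 1862, 1132 and 1345 CPM, and wild-type LCWE ranged from 1463 to 2275 with a median of 1884. Knockout LCWE was higher than knockout PBS by 1.38 ± 0.28 on the log2 scale. Knockout PBS was lower than wild-type PBS, at -1.01 ± 0.27, and knockout LCWE stood at -0.30 ± 0.22 against wild-type LCWE.

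Gas7 (chromosome 11, 67455437 to 67688990, plus strand) was at 18.7, 17.1, 17.1, 16.5 and 11.7 CPM in wild-type PBS. It was at 8.40, 14.3 and 9.94 CPM in knockout PBS, so replicate 2 lay above the lowest libraries of both wild-type groups. Knockout LCWE gave 19.8, 26.7, 20.1, 25.5 and 21.7 CPM. All 5 lay above every PBS library. Wild-type LCWE was the most spread of the groups, from 12.65 to 24.2 CPM with a median of 17.45. The log2 differences were 1.06 ± 0.23 for knockout LCWE against knockout PBS, -0.575 ± 0.227 between genotypes after PBS and 0.32 ± 0.18 between genotypes after LCWE.

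Haghl (chromosome 17, 25779843 to 25785673, minus strand) had the smallest difference of the 7 between knockout LCWE and knockout PBS. Wild-type PBS gave 15.6, 12.95, 13.6, 12.3 and 16.1 CPM, and knockout PBS gave 8.96, 11.8 and 10.4. The 3 knockout PBS libraries lay below the other 16, with replicate 2 just under the lowest wild-type PBS library. Knockout LCWE gave 15.99, 14.8, 16.6, 19.2 and 17.4 CPM, and wild-type LCWE ranged from 13.3 to 20.7 with a median of 16.5, so the LCWE groups overlapped. The log2 difference was 0.69 ± 0.15 for knockout LCWE against knockout PBS. It was -0.44 ± 0.15 between genotypes after PBS and 0.01 ± 0.12 after LCWE.

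Rrad (chromosome 8, 104628070 to 104631327, minus strand) had the lowest knockout PBS libraries in relative terms. Wild-type PBS gave 378, 381, 351.5, 239 and 294 CPM. Knockout PBS gave 94.5, 239 and 106 CPM, so that replicates 1 and 3 were at 28.7% and 32.3% of the wild-type PBS mean and replicate 2 at 72.65%, next to the lowest wild-type PBS library. Knockout LCWE gave 355, 226, 429.9, 486.5 and 318.5 CPM. Its replicate 2 lay below knockout PBS replicate 2, so the groups of the choice overlapped for Rrad only. Wild-type LCWE ranged from 297.5 to 471 CPM with a median of 404. The log2 difference was 1.31 ± 0.28 for knockout LCWE against knockout PBS, -1.17 ± 0.28 between genotypes after PBS and -0.09 ± 0.22 after LCWE.

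Ptprc (chromosome 1, 138062861 to 138175708, minus strand) differed from the others in where its range lay. Wild-type PBS gave 7.59, 6.16, 7.52, 5.34 and 6.23 CPM, and knockout PBS gave 4.20, 6.305 and 5.65 CPM. Replicate 1 was the only knockout PBS library below all wild-type PBS libraries. Knockout LCWE gave 9.66, 9.99, 11.2, 18.6 and 20.2 CPM, where replicates 4 and 5 lay above all other libraries. Wild-type LCWE ranged from 6.90 to 14.9 CPM with a median of 10.5. The log2 difference was 1.37 ± 0.27 for knockout LCWE against knockout PBS, -0.28 ± 0.27 between genotypes after PBS and 0.39 ± 0.21 after LCWE.

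**Figure D2:**
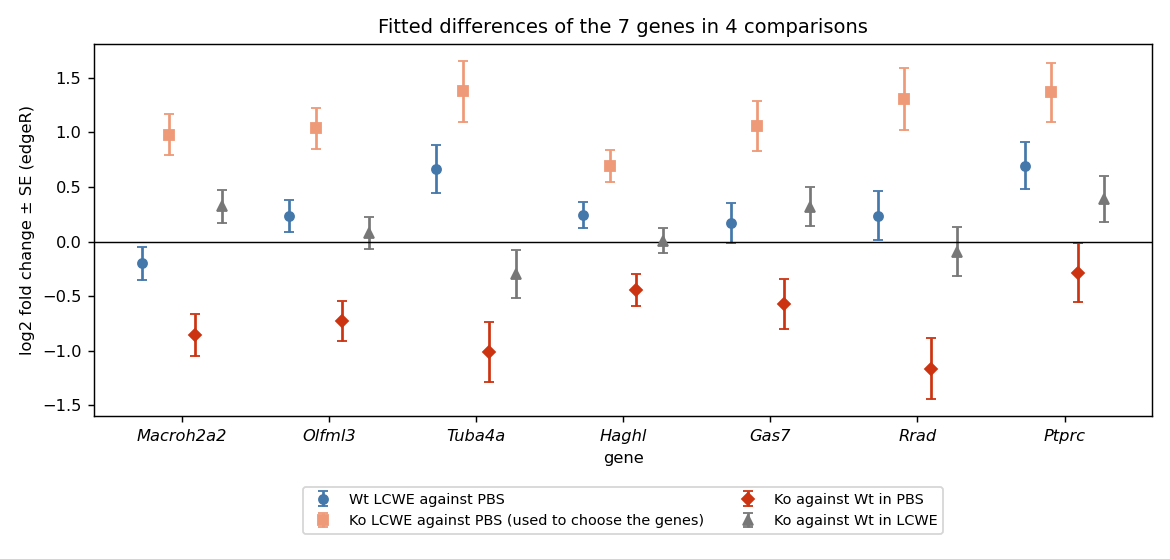
Log2 fold change ± SE from edgeR of the 7 genes in the 4 comparisons, with the comparison used to choose the genes marked in the key. Knockout against wild-type differences after PBS run from -1.17 for Rrad to -0.28 for Ptprc, and those after LCWE from -0.30 for Tuba4a to 0.39 for Ptprc.

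Taking the genes side by side, all 3 knockout PBS libraries lay below the other 16 for 3 of the 7 (Macroh2a2, Olfml3 and Haghl). The same held for 0.832% of the 14301 genes tested, and since the choice of genes used these libraries nothing is read from the counts in this paragraph. Against wild-type PBS alone all 3 lay lower for 4 genes (Rrad as well; 3.62% of genes tested), and against wild-type LCWE alone for 6, all but Gas7 (4.57%). Against knockout LCWE, the group of the choice, they lay lower for 6, all but Rrad (4.91%). At least 2 of the 3 lay below the other 16 libraries for 6 genes, all but Ptprc (11.4%). In the edgeR fit, 0.601% of genes passed between genotypes after PBS (0.0769% being lower in the knockout), and 0.00699% after LCWE, the 1 gene there being Mcm8, lower in the knockout. The fitted difference between genotypes after PBS was below 0 for 7 of the 7 genes and for 49.8% of all genes tested.

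The 3 knockout PBS libraries were not alike. Replicates 1 and 3 were the 2 lowest of the 19 libraries for 6 of the 7 genes, all but Ptprc. The same held for 10.1% of all genes tested. Since the choice of genes used these libraries, nothing is read from this count. Relative to the wild-type PBS mean, replicate 1 ranged from 28.7% (Rrad) to 63.9% (Ptprc), replicate 3 from 32.3% (Rrad) to 85.95% (Ptprc) and replicate 2 from 68.8% (Macroh2a2) to 96.0% (Ptprc). Macroh2a2 was the gene whose level in replicate 2 was farthest below wild type. Without replicate 2, the log2 difference of knockout LCWE from knockout PBS was 1.92 for Tuba4a and 1.85 for Rrad. Without replicate 1 it was 1.10 for Tuba4a, 1.08 for Rrad, 0.78 for Olfml3 and 0.92 for Macroh2a2. Without replicate 3 it was 1.24 for Tuba4a, 1.13 for Rrad and 0.87 for Macroh2a2. It was above 0 for the 7 genes whichever knockout PBS library was left out. The comparison of knockout LCWE with knockout PBS chose the genes, so nothing is read from that sign.

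**Figure D3:**
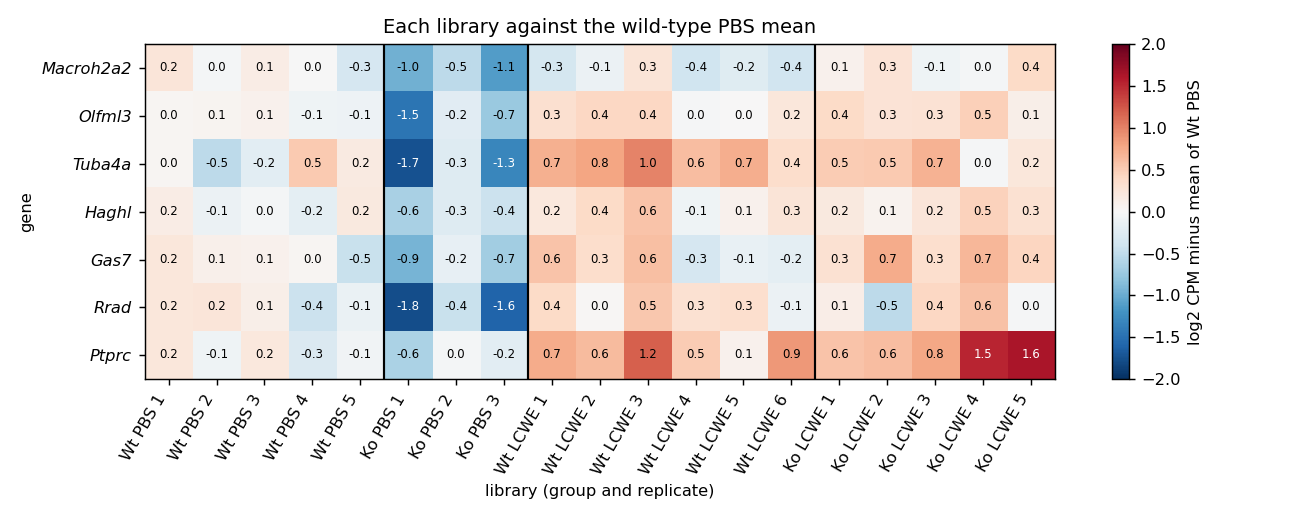
Log2 CPM of each gene (rows) in each library (columns) minus the mean of wild-type PBS, in colour from -2 (blue) to 2 (red), with the value in each cell. The columns of knockout PBS replicates 1 and 3 are blue in each row, and the rows of Ptprc and Tuba4a are red in most LCWE columns.

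Summed levels of cell type markers differed between these libraries, not all in the same direction. The summed level of 15 macrophage and monocyte markers, all tested, was 198, 374 and 150 CPM in knockout PBS replicates 1 to 3, against 243 to 323 in wild-type PBS. It was 291 to 601 CPM in wild-type LCWE and 354 to 950 in knockout LCWE. The sum of 8 fibroblast markers was 1018, 1312 and 946 CPM in knockout PBS replicates 1 to 3, against 1033 to 1683 in wild-type PBS, and that of 6 cardiomyocyte markers was 75440, 88050 and 68030 CPM, against 83500 to 96590. Replicates 1 and 3 were below wild-type PBS in these 3 sums, but single markers differed. For knockout against wild type after PBS, 3 of 15 macrophage and monocyte markers stood above 0, as did 2 of 8 fibroblast markers, among them Dcn at 0.49 ± 0.16. Of the 6 cardiomyocyte markers, 1 stood above 0. The sum of 6 smooth muscle and pericyte markers was 1367, 950 and 1247 CPM, against 1010 to 1395 in wild-type PBS. The sum of 6 endothelial markers was 1288, 1257 and 1204 CPM, inside the wild-type PBS range of 1012 to 1335. That of 4 atrial cardiomyocyte markers was 677, 508 and 893 CPM, above the wild-type PBS range of 352 to 614 in replicates 1 and 3. Nppa made up most of that sum, with a mean of 613 CPM against 11.9 for Myl4, 8.82 for Myl7 and 2.59 for Sln. For knockout against wild type after PBS, Myl4, Myl7 and Sln stood at 2.71 ± 1.26, 4.21 ± 1.83 and 4.90 ± 1.94. None of them passed (edgeR adjusted p = 0.24, 0.22 and 0.18). Y-linked genes stood from 4.88 (Uty) to 6.93 (Ddx3y) for knockout against wild type after PBS. In wild type they stood from 4.17 (Uty) to 5.37 (Ddx3y) for LCWE against PBS. None passed (edgeR adjusted p of 0.16 or more). With the Y-linked level as a covariate, 0% of genes passed between genotypes after PBS, against 0.601% without it. That share was also 0% without wild-type PBS replicate 1, 2 or 3, knockout PBS replicate 1 or 3, or wild-type LCWE replicate 5. It was 17.9% without knockout PBS replicate 2. In knockout LCWE against knockout PBS, 5.87% passed with the covariate, against 2.9% without it. Why these shares differ was not tested. The part of these markers in the levels of the 7 genes was not tested.

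In wild-type hearts, 0 of the 7 genes passed the edgeR test of LCWE against PBS over all libraries, and 0% of the 14301 genes did. At an unadjusted p under 0.05, edgeR gave 892 of the 14301 genes. With no difference at all, a share of about 0.05 of genes would reach that p. DESeq2 called 1 gene after adjustment. Taken singly by an exact two-sided permutation test over the 462 splits of 11 libraries, the largest differences were those of Tuba4a and Ptprc. That test compared means of log2(CPM + 1), which differed by 0.70 for Tuba4a and 0.60 for Ptprc. The differences printed with its p-values are log2 fold changes from edgeR. Tuba4a was higher after LCWE by 0.67 ± 0.22 on the log2 scale (SE; exact permutation p = 0.00866, edgeR adjusted p = 0.77). Ptprc was higher by 0.70 ± 0.22 (exact permutation p = 0.0130, edgeR adjusted p = 0.77). For each of them, 5 of the 6 LCWE libraries lay above all 5 PBS libraries.

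Olfml3 was higher after LCWE in wild-type hearts by 0.24 ± 0.15 (exact permutation p = 0.0476), with 4 of 6 LCWE libraries above all PBS libraries. Haghl stood at 0.24 ± 0.12 (exact permutation p = 0.0909), also with 4 of 6 above. Rrad stood at 0.24 ± 0.22 (exact permutation p = 0.169) with 4 of 6 above, Gas7 at 0.17 ± 0.18 (exact permutation p = 0.528) with 3 of 6, and Macroh2a2 at -0.20 ± 0.15 (exact permutation p = 0.178) with 1 of 6. These p-values are unadjusted, with 7 tests run, and the edgeR adjusted p of these 5 genes lay between 0.77 and 0.91. In none of the 7 genes were the wild-type groups fully separate, which was the case, with LCWE above, for 0.441% of genes tested.

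Each label also holds a number, and the sources used here do not say what it stands for. Of the wild-type libraries, 4 PBS and 3 LCWE libraries have a number from 100 to under 200, and the comparison within that range gave more calls. In a fit of the libraries of that range, 8.28% of 14747 genes passed the edgeR test in wild-type hearts, and 3 of the 7 did. Ptprc rose by 0.81 ± 0.17 (adjusted p = 0.0207), Tuba4a by 0.80 ± 0.19 (adjusted p = 0.0306) and Olfml3 by 0.33 ± 0.09 (adjusted p = 0.04998). The levels of Ptprc were 5.34 to 7.59 CPM after PBS and 10.15 to 14.9 after LCWE, and those of Olfml3 17.5 to 19.6 and 23.2 to 24.6. Besides these 3 genes, Haghl (12.3 to 15.6 CPM after PBS and 16.3 to 20.7 after LCWE) and Gas7 (16.5 to 18.7 and 20.4 to 24.2) did not overlap between the groups of that range, as was so, with LCWE above, for 12.4% of genes tested. Haghl and Gas7 did not pass the test, at adjusted p = 0.0544 and 0.0868.

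These calls rest on few libraries. When each of the 11 libraries of that range was left out in turn, a check added after the data were seen, Ptprc passed in 8 of 11 fits, Tuba4a in 6 and Olfml3 in 3. Ptprc was lost without wild-type PBS replicate 2 (adjusted p = 0.0641), wild-type LCWE replicate 2 (0.0750) or wild-type LCWE replicate 3 (0.0915). Tuba4a was lost without wild-type PBS replicate 1, 2 or 3 or wild-type LCWE replicate 2 or 3, with an adjusted p of up to 0.113. Olfml3 was lost without any of the 4 wild-type PBS libraries, wild-type LCWE replicates 2 or 3 or knockout LCWE replicates 1 or 3, with an adjusted p of up to 0.151. Macroh2a2 stood at -0.17 ± 0.16 in that range, the same sign as over all libraries.

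Ptprc, the blood-cell gene, was set against each of the other 6 over the 11 wild-type libraries. Olfml3 followed it most closely, with Pearson's r = 0.844 (permutation p = 0.00132, adjusted over 6 relations 0.00792) and Spearman's rho = 0.745 (permutation p = 0.0108, adjusted 0.0323). Haghl gave r = 0.784 (permutation p = 0.00483, adjusted 0.0145) and rho = 0.818 (permutation p = 0.00328, adjusted 0.0197). Without the 2 libraries farthest from the median of Ptprc, r was 0.790 for Olfml3 and 0.602 for Haghl. Both values pool the treatments: within the 6 LCWE libraries r was 0.729 for Olfml3 (exact permutation p = 0.100) and 0.744 for Haghl (exact permutation p = 0.0931), neither past 0.05.

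Tuba4a gave r = 0.563 with Ptprc (permutation p = 0.0708, adjusted 0.142), and rho = 0.545. Rrad gave r = 0.519 (permutation p = 0.104, adjusted 0.152) and rho = 0.464, and Gas7 gave r = 0.489 (permutation p = 0.127, adjusted 0.152) and rho = 0.427. Macroh2a2 showed no relation that could be detected, at r = -0.02 (permutation p = 0.958) and rho = -0.127. Within the 7 wild-type libraries numbered 100 to under 200, r was 0.928 for Olfml3, 0.953 for Haghl, 0.939 for Gas7, 0.746 for Rrad, 0.688 for Tuba4a and 0.02 for Macroh2a2. These values also pool the treatments, which do not overlap in that range for Ptprc, Olfml3, Tuba4a, Haghl and Gas7. Within the 6 LCWE libraries r was 0.575 for Gas7 (exact permutation p = 0.264), 0.533 for Macroh2a2 (exact permutation p = 0.289), 0.207 for Tuba4a (exact permutation p = 0.725) and 0.082 for Rrad (exact permutation p = 0.903).

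**Figure D4:**
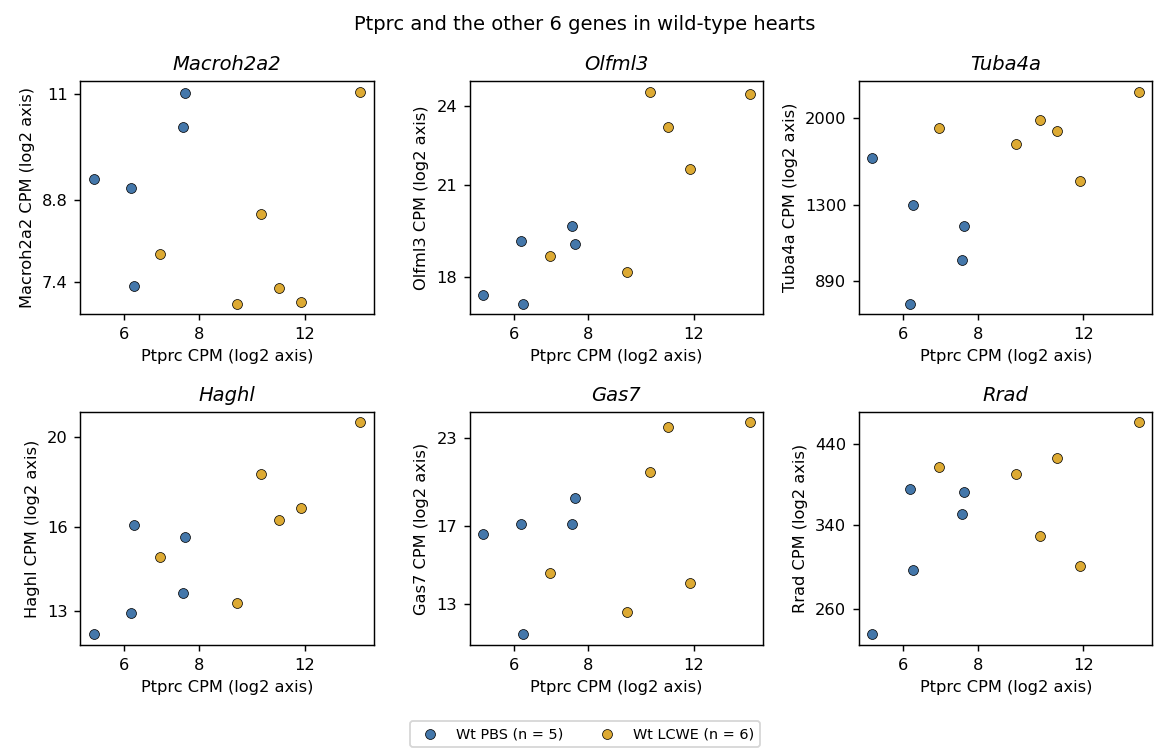
Ptprc (x axis) against each of the other 6 genes (y axis) in the 5 wild-type PBS and 6 wild-type LCWE libraries, in CPM on log2 axes. Olfml3 and Haghl increase with Ptprc (r = 0.844 and 0.784), and Macroh2a2 does not (r = -0.02).

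The genes whose levels over the 19 libraries were most like each of the 7 are named as a description, with r on log2 CPM over genes with a mean of at least 5 CPM. The libraries share treatment, genotype and the low knockout PBS libraries. For Macroh2a2 they were Zfp13 (r = 0.836) and Il13ra1 (0.823), and over the 11 wild-type libraries these values were 0.583 and 0.574. For Olfml3 they were Efemp2 (0.938) and Fcrls (0.937), and for Gas7 the endocytic adaptor gene Dab2 (0.951) and the fractalkine receptor gene Cx3cr1 (0.909). Tuba4a was most like Rtl8b (0.936) and another alpha-tubulin gene, Tuba8 (0.936), Haghl most like Fxyd5 (0.919) and Nrros (0.912), and Rrad most like Tab1 (0.924) and Tmem9 (0.911). Ptprc was most like Nckap1l (0.927) and Rac2 (0.919), both genes of blood cells. Over the wild-type libraries alone Gas7 with Dab2 (0.943), Haghl with Nrros (0.948), Ptprc with Rac2 (0.933) and Tuba4a with Tuba8 (0.905) remained above 0.9, whereas Rrad with Tmem9 was at 0.599.

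Among the 7 genes, r over all 19 libraries ranged from 0.557 (Tuba4a with Ptprc) to 0.879 (Olfml3 with Haghl). Over the 11 wild-type libraries the pairs with Macroh2a2 were at -0.21 with Tuba4a, -0.02 with Ptprc, 0.113 with Haghl, 0.146 with Olfml3, 0.185 with Rrad and 0.544 with Gas7. The pairs of Olfml3 with Haghl and with Gas7 were at 0.778 and 0.766. Differences between these values were not tested.

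Other genes of each pathway were read from lists, in the comparison of knockout LCWE with knockout PBS. That comparison chose the 7 genes, and the lists were drawn up with earlier results of these data known. Calls in the lists therefore describe the listed genes and add no support for the 7. In that comparison 2.9% of the genes tested changed, 0.818% being higher and 2.08% lower. In the 8 lists of relatives of the 7 genes, which hold none of the 7, 13 genes passed, and in wild-type hearts 0 passed in each list. Calls depended on single libraries: 0 genes of the lists passed without knockout PBS replicate 1 or without replicate 3, 1 passed without knockout LCWE replicate 1, 3 or 5, 7 without its replicate 4, and 48 passed without knockout PBS replicate 2. Of the wild-type libraries, 6 genes passed without PBS replicate 3, 8 without PBS replicate 1, PBS replicate 2 or LCWE replicate 1, and 20 without LCWE replicate 3. Over the 19 fits that each leave out 1 library, Fnbp1l was lost in 2, Tuba1b, Tubb5, Cenpa, Gclm and Wasl in 5, Lcp1 and Cd53 in 7, Trip10 in 10, Fcho2 in 12, Rac2 in 13, and Dpt and Tubb4b in 15.

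Of 18 genes for other tubulins and for enzymes that process tubulin tails, 3 rose in the knockout after LCWE and 0 fell. Tuba1b, a widely made alpha-tubulin, rose by 1.08 ± 0.24 (adjusted p = 0.0322, edgeR), Tubb5 by 0.85 ± 0.21 (adjusted p = 0.0371) and Tubb4b by 0.68 ± 0.18 (adjusted p = 0.0462). The muscle-rich Tuba8 stood at 0.88 ± 0.24 (adjusted p = 0.0525) and did not pass. The median of the 18 was 0.40 in the knockout and 0.19 in wild type, against 0.01 over all genes in each. The comparison in the knockout also chose Tuba4a, so nothing is read from setting these genes beside Tuba4a. Tuba1a stood at 0.91 ± 0.42 (adjusted p = 0.21). Tuba1b was at 185 ± 79 CPM (SD, n = 3) in knockout PBS and 287 ± 31 (n = 5) in wild-type PBS, a difference that did not pass (-0.63 ± 0.24, adjusted p = 0.16, edgeR).

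Of 18 pan-leukocyte genes, 3 rose and 0 fell in the knockout after LCWE. Lcp1, an actin-bundling protein of leukocytes, rose by 1.53 ± 0.36 (adjusted p = 0.0373), the tetraspanin gene Cd53 by 1.37 ± 0.33 (adjusted p = 0.0373) and the GTPase gene Rac2 by 1.85 ± 0.48 (adjusted p = 0.0440). The fitted difference was above 0 for 18 of 18 genes in both genotypes, against 51.5% of all genes tested in wild type. The median of the 18 was 1.26 in the knockout and 0.63 in wild type, against 0.01 over all genes in each. Ptprc stood at 0.70 in wild type. Its 1.37 in the knockout comes from the comparison that chose it, so nothing is read from setting it beside the median. Of 16 substrates and regulators of CD45, 0 passed, and the closest were the Src family kinase gene Fgr, at 3.04 (adjusted p = 0.0594), and the phosphatase gene Ptprj, at 0.81 (adjusted p = 0.0589).

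Of 19 F-BAR and actin nucleation genes, the relatives of Gas7, 0 rose and 4 fell in the knockout after LCWE. Fnbp1l, an F-BAR protein of endocytosis, fell by 0.90 ± 0.16 (adjusted p = 0.0148), Wasl, which activates the Arp2/3 complex, fell by 0.64 ± 0.15 (adjusted p = 0.0338), and Trip10 and Fcho2 fell by 0.57 ± 0.14 and 0.55 ± 0.14 (adjusted p = 0.0391 and 0.0418). The list's median was 0.00. Between genotypes after PBS, Fnbp1l was higher in the knockout by 0.87 ± 0.16 (adjusted p = 0.0316, edgeR). Wasl, Trip10 and Fcho2 stood at 0.52, 0.50 and 0.57 there and did not pass (edgeR adjusted p of 0.058 or more). Between genotypes after LCWE, Fnbp1l, Wasl, Trip10 and Fcho2 stood at 0.20, 0.06, 0.01 and 0.11. The sign of Gas7 in knockout LCWE against knockout PBS was fixed by the choice, so nothing is read from setting these genes beside Gas7.

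Of 18 histone variant and chaperone genes, 0 rose and 1 fell. This was Cenpa, the centromeric histone H3, which fell by 0.51 ± 0.12 (adjusted p = 0.0346), whereas Macroh2a1 stood at -0.01 ± 0.10 (adjusted p = 0.97). Of 13 genes of the glyoxalase system, the metallo-beta-lactamase fold and glutathione metabolism, 0 rose and 1 fell. This was Gclm, which is no glyoxalase but a subunit of the enzyme that starts glutathione synthesis, and it fell by 1.02 ± 0.22 (adjusted p = 0.0302). Hagh, the enzyme that Haghl resembles, stood at -0.24 ± 0.15 (adjusted p = 0.33). For knockout against wild type, Cenpa stood at 0.35 ± 0.12 after PBS and -0.28 ± 0.10 after LCWE. Gclm stood at 0.94 ± 0.22 and -0.02 ± 0.19 in the same order. None of these differences between genotypes passed (edgeR adjusted p of 0.0518 or more).

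Of 16 olfactomedin and fibroblast secreted genes, the matrix gene Dpt (dermatopontin) rose by 0.99 ± 0.26 (adjusted p = 0.0457) and 0 fell. The median was 0.74 in the knockout after LCWE against knockout PBS, -0.53 for knockout against wild type after PBS and 0.11 in wild type after LCWE. Olfml1, of the same family as Olfml3, stood at 0.26 ± 0.38 (adjusted p = 0.72). Of 17 genes of the RGK family and the L-type calcium channel, 0 passed. The smallest p were those of the calmodulin gene Calm3, at 0.32 (adjusted p = 0.12), and of Cacna1c, the pore subunit of the channel, at -0.62 (adjusted p = 0.19). The RGK genes Gem and Rem1 stood at -0.03 ± 0.25 (adjusted p = 0.97) and -0.09 ± 0.21 (adjusted p = 0.82), and Rem2 was at or near 0 CPM in every group.

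Several of the 7 share exon bases with a gene on the opposite strand in the GENCODE M21 annotation, and the sources used here do not say whether strand was used in counting. Tuba4a shares 1379 bases with Stk16, whose mean level was 44.0 CPM against 1395 for Tuba4a. Haghl shares 544 bases with Ciao3 (mean 58.8 CPM), which stood at 0.09 in the knockout after LCWE, and Macroh2a2 shares 233 with Aifm2 (mean 42.5 CPM), which stood at -0.185. Both partners were more abundant than the genes described, so the counts of Haghl and Macroh2a2 are uncertain where the exons overlap. Gas7 shares 66 bases with Glp2r and Rrad 141 with Gm33023.

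Genes with a mean of at least 5 CPM that were higher in knockout LCWE than in knockout PBS were ordered by p for description. In that order the last of the 7 was Rrad (1.31 on the log2 scale), followed by Fyb (1.87), Tmem164 (0.86) and Pik3ap1 (2.14). The macrophage mannose receptor gene Mrc1 (1.36), with a p between those of Olfml3 and Macroh2a2, is not among the 7. This order alone therefore did not set the choice.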

How the data were processed

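The deposited table holds gene counts of 19 heart libraries by gene symbol, whole numbers that the authors did not normalize. Per the labels' protocols, a whole-transcriptome kit was used for reverse transcription and preamplification. The submitters' processing notes name STAR 2.7.8a, limma 3.36.160 and GRCm38, with no role for any of them. The sources used here do not name a counting program or a strand setting. Each column matched 1 sample by its label, and replicates were numbered in accession order.

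Genes were kept by filterByExpr (minimum count 10, minimum total 15), which left 14301, scaled by TMM and fitted with all 4 groups in 1 robust quasi-likelihood model of edgeR 4.0.16 in R 4.3.3, which was tested on simulated data. P-values were adjusted by Benjamini-Hochberg over all genes tested (threshold 0.05). The SE of an edgeR difference was taken as its absolute size divided by the square root of the F statistic. CPM were computed from the counts, with a prior count of 2 on the log2 scale. Single-gene exact permutation tests used log2(CPM + 1), and correlations 100000 resamples. Coordinates and exon lengths are from GENCODE M21 (24366 of 25239 symbols matched by name).

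The 7 genes and all gene lists were chosen with earlier results of these data known. Besides the 7, the text names Mcm8, the 3 genes on either side of the last chosen gene, the 2 most alike to each, paralogues, and up to 4 called genes per pathway list (the 2 with the smallest p where 0 passed). Alternatives were DESeq2 1.42.0, voom of limma 3.58.1 with or without library weights, scaling by RLE or by totals, a strict filter (5 CPM in 3 libraries) or none, a non-robust fit, a fit of the compared groups, covariates, 1 range of label numbers, and each library left out.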

Additional observations from a re-analysis of the deposited data

Results flagged for a closer look

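Macroh2a2 in wild-type LCWE replicate 3, at 11.05 CPM, lay far above the other 5 libraries of its group, with a gap of 0.63 of the group's range. It was the 1 such library among 21 groups of 4 or more libraries examined over the 7 genes, and chance gives such a gap in about 1 of 20 groups. The same library was also the highest of its group for Tuba4a, Haghl, Gas7, Rrad and Ptprc.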

How the results depend on the processing

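In wild-type hearts, the sign of the LCWE difference of each of the 7 genes held under every alternative except for Gas7, at -0.049 (adjusted p = 0.93) with limma-voom with library weights. Of the 7 genes, 0 were called there in the main fit and in each fit without 1 library, and 3 within libraries numbered 100 to under 200. Genes called, in percent of those tested, were 0% in wild-type LCWE against PBS, but 0.00699% with DESeq2, 0.00699% with voom and weights and 8.28% within that range (0% without any 1 library). In knockout LCWE against PBS, 2.9% became 1.42% with no filter on low counts (282 genes against 415), 1.6% with library totals, 8.81% with DESeq2, 0.818% with voom, 9.78% with voom and weights, 0% with only the groups compared, 0.797% with the number range as a covariate, 5.87% with the Y-linked level, 0.357% with genes detected and 27.1% within the range, where the knockout has 1 PBS library (0.0069% to 20.2% without 1 library). Between genotypes after PBS, 0.601% became 0.311%, 0.147%, 4.89%, 0.00699%, 5.05%, 0.00732%, 3.66%, 0%, 0.392% and 27% in the same order of settings (0% to 17.9% without 1 library). After LCWE, 0.00699% became 0% with the strict filter, 0.0559% with DESeq2, 0.014% with voom and weights and 0% within the range (0.00688% to 0.014% without 1 library). Of the pathway list genes in the knockout, 13 became 9, 7, 32, 4, 28, 0, 1, 21, 1 and 49 in that order of settings (0 to 48 without 1 library). The causes were not tested. No paired analysis was possible because the labels carry no replicate numbers shared between groups.

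Calls in the knockout rest on 3 PBS libraries, of which replicates 1 and 3 differ from replicate 2. Depth limits Macroh2a2 and Ptprc most, with 57 and 60 counts in their lowest libraries. Exon overlap on the opposite strand leaves the levels of Macroh2a2 and Haghl uncertain.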
